A study of Rattus norvegicus with 6 samples.

Results

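The genes described here were 47 genes of cytokine, chemokine and NF-κB signalling, taken by name from a list of ligands, receptors and signalling proteins that was drawn up with earlier results of these data known. A gene was found where a probe row of the array carried its symbol and no other, and 47 of 47 had such a row, among 18166 genes on the array. Retinas of male SD rats that had been made diabetic with a high fat diet and injected streptozotocin were measured on the Affymetrix Rat Gene 2.0 ST array. In it biotin-labelled cDNA is hybridized to short probes. The HCDDP group (n = 3 arrays) was given Compound Danshen Dripping Pill (CDDP), a preparation of Danshen, notoginseng and borneol, by daily gavage at 0.4 g/kg/d for 12 weeks. The diabetic group (n = 3 arrays) received saline. According to the methods the rats of both groups were 5 weeks old at the start and ate the high fat diet for 4 weeks before streptozotocin at 30 mg/kg, whereas the labels give 17 weeks as the age of every sample. Streptozotocin destroys the insulin-producing cells of the pancreas, so both groups carried its action as well as that of the diet. No array of a non-diabetic rat was analysed here, and therefore no value below says what diabetes itself did to these genes. Nothing in the labels ties an array to 1 animal, so the p-values may reflect technical spread and not that between rats.

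Cytokines and chemokines are secreted proteins with which immune and tissue cells signal to each other. Many of their receptors end at NF-κB, a pair of DNA-binding proteins such as p65 (Rela) and p50 (Nfkb1), which is held in the cytoplasm by IκBα (Nfkbia) and released when the receptor is engaged. NF-κB then binds κB sites near the genes of further cytokines, of chemokines and of IκBα itself, which closes a feedback loop. Cytokines of the IL-6 family act instead through the shared receptor gp130 (Il6st) and STAT3, which induces its own inhibitor SOCS3. In the retina these signals pass mainly between microglia, the resident macrophages, Müller glia, neurons and blood vessels, and inflammation of low grade is a known feature of the diabetic retina.

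The samples differed in ways that bear on every value below. All 9 measured markers of rod photoreceptors lay at or above the 89.4th percentile of the signals in every array. The labels give the tissue of all samples as retina, although the titles of the diabetic samples, and not those of the treated samples, speak of the eye. On the first principal component of all genes, which held 44.9% of the variance, the arrays numbered 3 of both groups lay at one end, at −34.6 and −30.6, and diabetic arrays 1 and 2 at the other, at 43.6 and 28.2. Arrays that share a number deviated together from their group means, so a replicate block was fitted as an alternative, and the differences within numbered pairs are given beside those between the groups.

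A difference is given below as the log2 signal of the HCDDP group minus that of the diabetic group, fitted with limma over all genes. The threshold of the study's methods is a fold change over 1.5 with a p under 0.05 before adjustment. Il18 and Cx3cl1, the genes of interleukin-18 and of the chemokine fractalkine, were the 2 of 47 (4.26%) that passed it, both lower in the HCDDP group, against 2.28% of all genes in that direction. In the other direction 0 of 47 passed, against 0.925% of all genes. Il33 and Rela had an unadjusted p under 0.05 as well but a smaller fold, which made 4 of 47 (8.51%) lower, against 3.51% of all genes, and 0 of 47 higher, against 2.54%. After adjustment over all genes 0 of 47 passed with limma, with adjusted p from 0.782 to 0.999, and by the methods' t-test 0 of 47 had an unadjusted p under 0.05, against 5.12% of all genes. The median difference of the 47 genes was −0.07, that of all genes −0.01. The differences ran from −1.01 for Il18 to 0.43 for Osm, with 32 genes lower and 15 higher, and quantile normalization turned the sign of 5 of them and median centring that of 2. Differences of less than 0.20 in size were seen in 26 genes, and of less than 0.30 in 32.

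**Figure D1:**
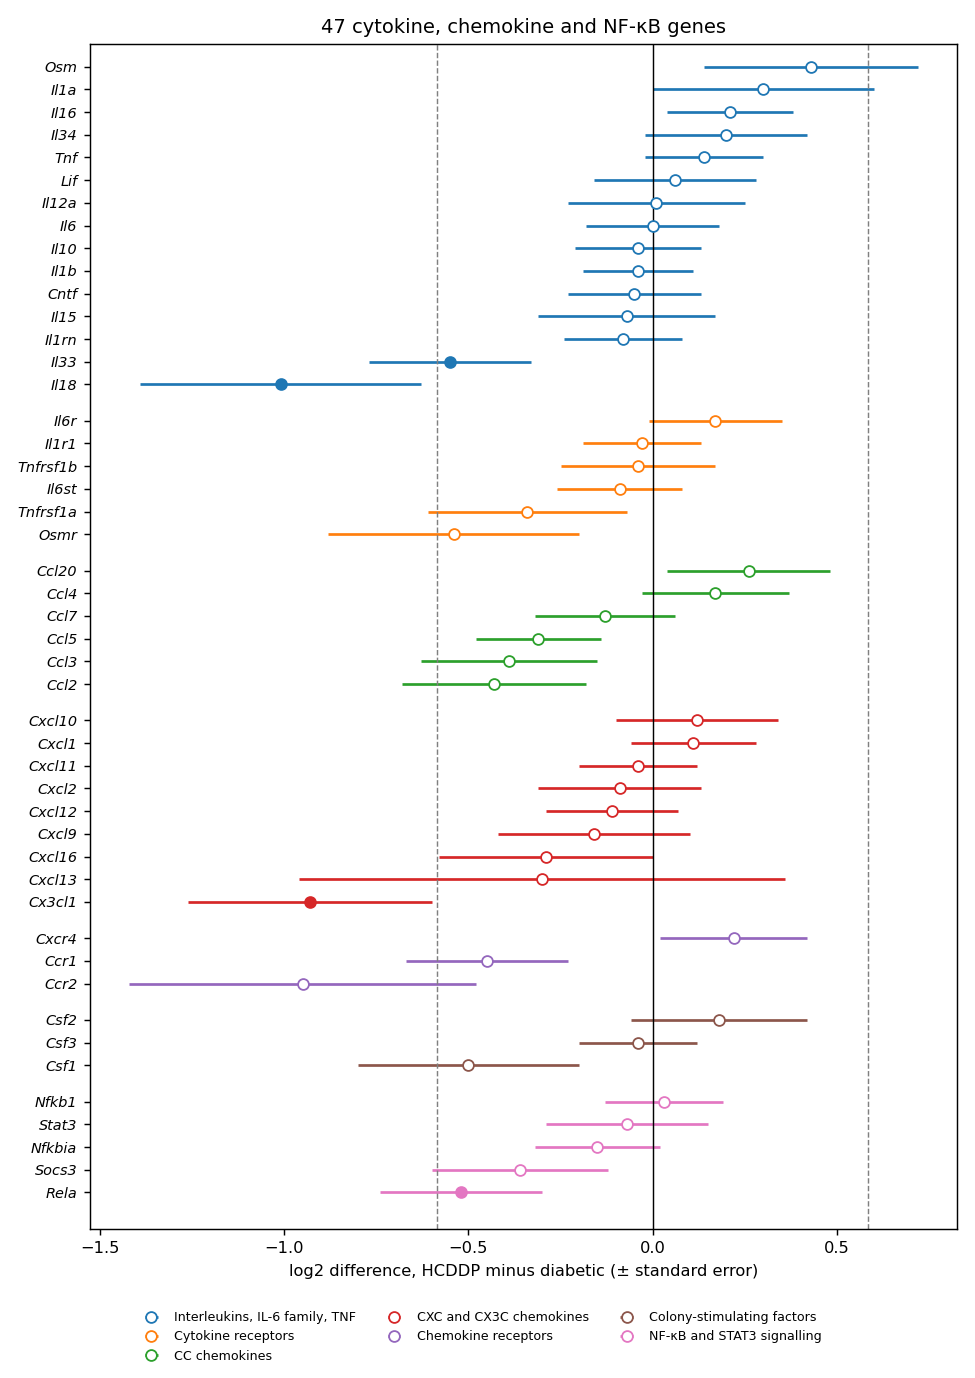
Log2 difference (HCDDP minus diabetic) of each of the 47 genes on the horizontal axis, with its standard error from limma as the bar, grouped by role. Filled points have an unadjusted p under 0.05 and dashed lines mark a fold change of 1.5, which Il18 at −1.01 and Cx3cl1 at −0.93 passed with such a p, while Ccr2 at −0.95 lay beyond the line with a p above 0.05.

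Among the 15 ligands of the interleukin, IL-6 and TNF families, 8 were lower and 7 higher, with a median of −0.00. Il18 encodes a cytokine that is made as an inactive precursor, cut by the caspase-1 inflammasome and known for inducing interferon-γ in lymphocytes. In the order of the array numbers its log2 signal was 6.21, 7.12 and 6.19 in the HCDDP group and 7.52, 8.20 and 6.82 in the diabetic group, and every other gene below is given in that order. The groups overlapped through a single array on each side, since HCDDP array 2 lay above diabetic array 3. The means were 6.51 ± 0.53 (SD, n = 3) and 7.51 ± 0.69 (SD, n = 3), a difference of −1.01 with a standard error of 0.38, or 2.01-fold lower (adjusted p = 0.782 from limma, 95% interval −1.87 to −0.14). Il18 was lower in each of the 3 numbered pairs, by differences of −1.31, −1.08 and −0.62. Il18 no longer passed the threshold without HCDDP array 1 (−0.86), HCDDP array 3 (−0.85), diabetic array 1 (−1.0) or diabetic array 2 (−0.66). Because Il18 carries the largest difference of the list, the 250 bases before its start are shown, from the RefSeq annotation of the rat build GRCr8 (chr8:59801822-59802071, plus strand). None of the motifs searched for below is spelled in them, which says nothing about a factor's binding.
Il18: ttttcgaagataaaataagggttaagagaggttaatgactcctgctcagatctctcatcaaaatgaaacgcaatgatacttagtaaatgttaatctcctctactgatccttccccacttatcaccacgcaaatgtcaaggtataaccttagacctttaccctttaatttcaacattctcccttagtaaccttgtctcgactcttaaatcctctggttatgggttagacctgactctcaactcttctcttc

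Il33 encodes an alarmin, a cytokine kept in the nucleus and set free by damaged cells, which Müller glia are known to hold in the rodent retina. Its log2 signal was 8.50, 8.28 and 8.17 in the HCDDP group and 8.99, 9.16 and 8.43 in the diabetic group. Again diabetic array 3 was the low array of its group, and HCDDP array 1 lay just above it. The difference was −0.55 with a standard error of 0.22 and, from limma, an adjusted p of 0.782, below the fold of 1.5, and the pairs differed by −0.50, −0.88 and −0.27. It passed the threshold without HCDDP array 1 (−0.64), and also once diabetic array 3 was left out (−0.76).

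The classical inflammatory cytokines follow. Il1b, the gene of the main inflammasome product beside interleukin-18, had log2 signals of 4.03, 4.01 and 3.91 in the HCDDP group and 4.0, 3.92 and 4.14 in the diabetic group. Its difference was −0.04, with a 95% interval of −0.39 to 0.32, and the sign turned without diabetic array 3 (0.02). Tnf, the gene of tumour necrosis factor, lay at 4.90, 4.95 and 5.23 in the HCDDP group and 4.90, 4.87 and 4.89 in the diabetic group. HCDDP array 3 stood apart from the other 5 arrays, which lay within 4.87 to 4.95, and the difference of Tnf was 0.14 (95% interval −0.23 to 0.51). Il6 lay at 4.77, 4.48 and 4.58 in the HCDDP group and 4.84, 4.57 and 4.42 in the diabetic group. Its difference was −0.00 (95% interval −0.41 to 0.41), and it was 0.03 after median centring. The groups overlapped for each of the 3 genes. Their signals were weak, at percentiles 11.5 to 16.2 of the signals of an array for Il1b, 16.6 to 27.1 for Il6 and 24.1 to 29.5 for Tnf, so these intervals describe weak probe rows and set no limit on the transcripts. Il1a, the second ligand of the interleukin-1 receptor, had a difference of 0.30 with a standard error of 0.30, and Il1rn, the natural antagonist of that receptor, had −0.08. Il10, known as an anti-inflammatory cytokine, had −0.04, Il12a 0.01 and Il15, which sustains natural killer cells, −0.07. The signal of Il10 was weak too, at percentiles 11.2 to 14.3. Il16 had 0.21 and Il34, a ligand of the receptor that maintains microglia, 0.20.

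**Figure D2:**
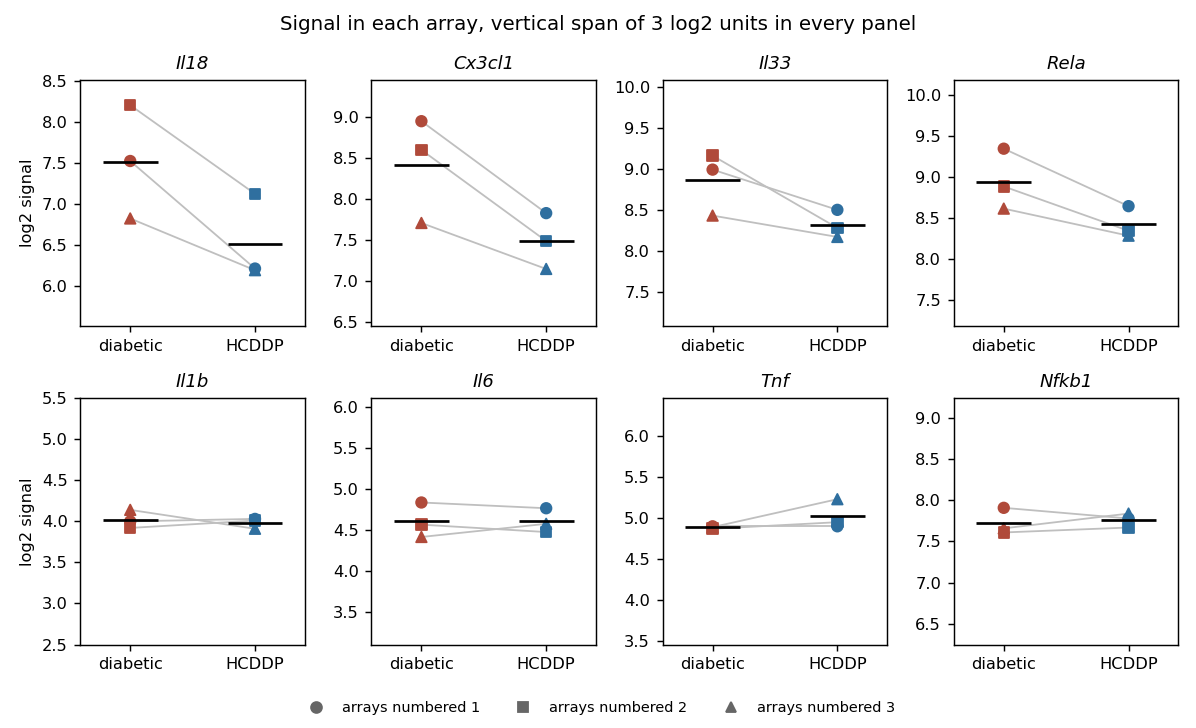
Log2 signal (vertical axis, 3 log2 units in each panel) in every array of 8 genes, with lines joining arrays of the same number and black bars for group means. In the upper row each numbered pair goes down and diabetic array 3 is the lowest diabetic array, as for Il18 at 6.82. In the lower row the groups overlap, as for Il1b at 4.03, 4.01 and 3.91 against 4.0, 3.92 and 4.14.

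The genes of the IL-6 family, whose members LIF and CNTF are known as survival factors for photoreceptors, come next. Lif lay at 4.91, 5.28 and 5.61 in the HCDDP group and 5.12, 5.04 and 5.47 in the diabetic group, a difference of 0.06 (95% interval −0.45 to 0.57). Cntf lay at 5.99, 6.44 and 6.02 against 6.32, 6.23 and 6.06, a difference of −0.05 (95% interval −0.48 to 0.37). The arrays of the groups were mixed for both genes. Osm, the gene of oncostatin M, was the highest of the 47 at 0.43 with a standard error of 0.29, and the pairs differed by 0.54, 0.37 and 0.39. With the replicate block its p was 0.0181 from limma (adjusted p = 0.321), at a fold under 1.5.

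Of the 6 cytokine receptors 5 were lower, and 0 passed the threshold. Osmr, the oncostatin M receptor, had a difference opposite in sign to its ligand, at −0.54 with a standard error of 0.34, and pair differences of −0.35, −0.94 and −0.33. Without diabetic array 3 it passed the threshold at −0.88. Tnfrsf1a, the TNF receptor that most cells carry, had −0.34 and was lower in all 3 pairs, while Tnfrsf1b, the form found mainly on leukocytes, had −0.04. Il6st lay at 9.77, 9.70 and 9.50 in the HCDDP group and 9.81, 9.89 and 9.56 in the diabetic group. Its difference was −0.09 (95% interval −0.48 to 0.30), and it became 0.04 after quantile normalization. Il1r1, the signalling receptor of interleukin-1, had −0.03, and Il6r, which binds interleukin-6 itself, had 0.17.

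Cx3cl1 encodes fractalkine, a chemokine made by neurons, anchored in their membrane and known for restraining microglia through its receptor CX3CR1. Its log2 signal was 7.83, 7.49 and 7.15 in the HCDDP group against 8.95, 8.60 and 7.71 in the diabetic group. The 3 HCDDP arrays lay below diabetic arrays 1 and 2, and HCDDP array 1 above diabetic array 3. The means were 7.49 ± 0.34 (SD, n = 3) and 8.42 ± 0.64 (SD, n = 3), a difference of −0.93 with a standard error of 0.33, or 1.90-fold lower (adjusted p = 0.782 from limma, 95% interval −1.67 to −0.18). The pairs differed by −1.12, −1.10 and −0.56. Cx3cl1 did not pass the threshold without HCDDP array 2 (−0.93), HCDDP array 3 (−0.76), diabetic array 1 (−0.66) or diabetic array 2 (−0.84). The receptor gene Cx3cr1, which is not among the 47, differed the other way, at 0.65 with a standard error of 0.20, and its groups did not overlap. It passed the threshold too, but not without HCDDP array 2 (0.52). In a tissue sample such as this, fewer cells of a type and less RNA per cell cannot be told apart. The 250 bases before the start of Cx3cl1 (GRCr8, chr19:10242821-10243070, minus strand), given as those of the second gene past the threshold, also spell none of the motifs searched for.
Cx3cl1: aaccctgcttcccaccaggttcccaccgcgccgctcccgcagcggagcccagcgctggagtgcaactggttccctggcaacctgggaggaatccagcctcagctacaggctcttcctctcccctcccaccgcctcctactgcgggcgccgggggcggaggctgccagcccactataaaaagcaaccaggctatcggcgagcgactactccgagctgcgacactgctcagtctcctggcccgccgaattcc

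The other 8 ligands of the CXC kind ran from −0.30 to 0.12. Cxcl12, which guides cells that carry CXCR4, lay at 8.72, 8.79 and 8.40 in the HCDDP group and 8.82, 8.82 and 8.59 in the diabetic group. Its difference was −0.11 (95% interval −0.51 to 0.29), and it was 0.01 after quantile normalization. Cxcl13, a chemokine for B cells, spread widely, from 4.63 to 6.24 in the HCDDP group and from 4.27 to 6.98 in the diabetic group, and its difference of −0.30 had a standard error of 0.66. Without diabetic array 2 it was 0.28. The neutrophil chemokines Cxcl1 and Cxcl2 had 0.11 and −0.09, and the interferon-induced chemokines Cxcl9, Cxcl10 and Cxcl11, which attract T cells, had −0.16, 0.12 and −0.04. Cxcl16 had −0.29.

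Ccl5, which attracts T cells and monocytes, was the 1 gene of the 47 (2.13%) whose groups did not overlap, against 10.7% of all genes, or 4.30% in the same direction. Its log2 signal was 6.14, 5.93 and 5.91 in the HCDDP group and 6.27, 6.15 and 6.50 in the diabetic group. The gap between the highest HCDDP array and the lowest diabetic array was small, 6.14 against 6.15, and the difference was −0.31 with a standard error of 0.17 (exact permutation p = 0.10, two-sided, the smallest that 3 arrays against 3 allow). Ccl2, the main chemokine for monocytes, lay at 6.50, 6.87 and 6.36 against 7.41, 7.08 and 6.54. Its difference was −0.43 (95% interval −1.0 to 0.15), and the pairs differed by −0.91, −0.20 and −0.18. It was −0.23 without diabetic array 1 and −0.66 without diabetic array 3. Ccl3, which attracts macrophages, had −0.39 and was lower in all 3 pairs. The related Ccl4 had 0.17 at a weak signal (percentiles 7.1 to 15.5). Ccl7, another monocyte chemokine, had −0.13 and Ccl20, the ligand of CCR6, 0.26.

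Among the 3 chemokine receptors, Ccr2, the receptor with which blood monocytes follow Ccl2, had the second largest difference of the 47 but did not pass the threshold. Ccr2 is described here because of its values. Its signal was weak in some arrays, between percentiles 7.5 and 40.8 of the signals of an array. Its log2 signal was 5.07, 4.69 and 3.42 in the HCDDP group against 5.82, 5.71 and 4.51 in the diabetic group. The arrays of a group lay farther apart than the group means did, and in both groups array 3 was lowest. The difference was −0.95 with a standard error of 0.47 and, from limma, an adjusted p of 0.782, while the pairs differed by −0.75, −1.02 and −1.08. With the replicate block Ccr2 passed the threshold, with a standard error of 0.14 and, from limma, an adjusted p of 0.282. The block made 3 of 47 genes (6.38%) past the threshold, Il18, Cx3cl1 and Ccr2, against 4.62% of all genes. An unadjusted p under 0.05 was then reached by 10 genes that were lower, against 8.30% of all genes, and by Osm, which was higher. Ccr1, a receptor of Ccl3 and Ccl5, had −0.45 and was lower in all 3 pairs, at a weak signal (percentiles 13.7 to 25.9). Cxcr4 had 0.22.

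The colony-stimulating factors sustain the cells of the myeloid line. Csf1, a ligand of the receptor that microglia depend on, had −0.50 with a standard error of 0.30 and pair differences of −0.47, −0.65 and −0.39. It passed the threshold without HCDDP array 1 (−0.73), and also once diabetic array 3 was left out (−0.77). Csf2 and Csf3, the factors of granulocytes and macrophages and of granulocytes, had 0.18 and −0.04. Both signals were weak, at percentiles 11.2 to 16.9 and 10.9 to 17.2.

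Of the 5 genes of NF-κB and STAT3 signalling, 4 were lower. Rela, the p65 subunit that carries the activating domain, lay at 8.64, 8.34 and 8.28 in the HCDDP group against 9.34, 8.88 and 8.61 in the diabetic group. HCDDP array 1 reached just above diabetic array 3. The difference was −0.52 with a standard error of 0.22 and, from limma, an adjusted p of 0.782, below the fold of 1.5, with −0.70, −0.54 and −0.33 within the pairs. It passed the threshold without HCDDP array 1 (−0.63), and also once diabetic array 3 was left out (−0.69). Nfkb1, whose product gives the p50 partner of p65, did not go along with it. Its signals were 7.78, 7.67 and 7.84 in the HCDDP group and 7.91, 7.61 and 7.66 in the diabetic group, a difference of 0.03 (95% interval −0.34 to 0.40). Nfkbia lay at 8.85, 8.68 and 8.65 against 8.84, 9.09 and 8.69. Its difference was −0.15 (95% interval −0.54 to 0.25), and diabetic array 2 alone was high. Socs3 lay at 6.17, 6.31 and 6.46 against 7.18, 6.37 and 6.48. Its difference of −0.36 became −0.11 without diabetic array 1, and the pairs differed by −1.01, −0.06 and −0.01. Stat3 lay at 9.01, 8.62 and 8.30 against 8.97, 8.68 and 8.50, a difference of −0.07 (95% interval −0.58 to 0.44) that became 0.03 after quantile normalization.

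κB sites were not used to choose the genes, but NF-κB is known to bind such sites near many cytokine and chemokine genes. A share above that of all windows could thus follow from the choice of the list alone. The 250 bases before each start were searched on both strands for the 10-base κB consensus. A RefSeq window was found for 37 of the 47 genes. The other 10 were Il10, Il34, Lif, Osm, Ccl2, Ccl3, Ccl4, Ccl5, Csf1 and Csf3. They were not searched and stand in neither set below. The consensus was spelled in 10 of the 37 (27.0%), against 6.33% of 33469 windows of the same length in the rat annotation. The first share counts genes and the second counts windows, and their difference was not tested. The 10 genes were chemokines (Ccl7, Ccl20, Cxcl1, Cxcl2, Cxcl10 and Cxcl11), Il6, Il1r1 and the feedback inhibitors Nfkbia and Socs3. The stretch of 30 bases around the match nearest to the start is shown for each, with every base of a match in capitals, because these are the genes whose windows hold the consensus. All are from GRCr8 and are written along the gene's own strand.
Nfkbia: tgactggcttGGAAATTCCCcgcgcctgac
Il6: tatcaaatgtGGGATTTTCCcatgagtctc
Cxcl1: ctgtgctccGGGAATTTCCCtggcctggag
Cxcl2: ctaagctcaGGGGATTTCCCtgatccctgg
Cxcl10: ttaacatcaGGGAACTTCCCtcgaaggttg
Cxcl11: gagtcaagagGGGAAATTCCtgactctctg
Ccl7: tcattccaaaGGAAGATCCCgccctaactg
Ccl20: aatcaatgggGGAAAACCCCgggtgagaac
Il1r1: cagagaccctGGAATGCCCCgcagggatgt
Socs3: gcgggtcaaaGGGGTGCCCCaggcgctagg

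The nearest match began 31 bases before the start in Nfkbia (chr6:78597084-78597113, minus strand), 68 bases in Il6 (chr4:5894624-5894653, minus strand), 83 bases in Cxcl1 (chr14:17479385-17479414, minus strand) and 73 bases in Cxcl2 (chr14:17467309-17467338, minus strand). It began 127 bases before the start in Cxcl10 (chr14:15988929-15988958, plus strand), 74 bases in Cxcl11 (chr14:15973644-15973673, plus strand), 59 bases in Ccl7 (chr10:67514026-67514055, plus strand) and 89 bases in Ccl20 (chr9:91837060-91837089, plus strand). In Il1r1 (chr9:50034238-50034267, plus strand) it began 135 bases and in Socs3 (chr10:103694910-103694939, minus strand) 161 bases before the start. Cxcl1 and Cxcl2 held 2 matches each in the window and Cxcl10 held 3. The differences of the 10 genes with a match ran from −0.36 for Socs3 to 0.26 for Ccl20, with a median of −0.03, and 0 of the 10 had an unadjusted p under 0.05, against 6.05% of all genes. Several of them had weak signals, with Cxcl11 at percentiles 5.5 to 12 of the signals of an array, Il6 at 16.6 to 27.1 and Ccl7 at 18.7 to 28.1. The 27 genes with a window and no match ran from −1.01 to 0.30, with a median of −0.08, and held Il18, Cx3cl1, Il33 and Rela, the 4 genes with an unadjusted p under 0.05. The difference between the 2 sets was not tested. The STAT motif TTCNNNGAA was spelled in 2 of the 37 (5.41%), Csf2 and Cxcl11, against 7.67% of all windows. The interferon response element GAAANNGAAA was spelled in 3 (8.11%), Cxcl10, Il6st and Tnfrsf1b, against 3.41%. No κB match overlapped a match of either. A match of letters is not a binding site, and a window without one can lie near sites farther away.

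**Figure D3:**
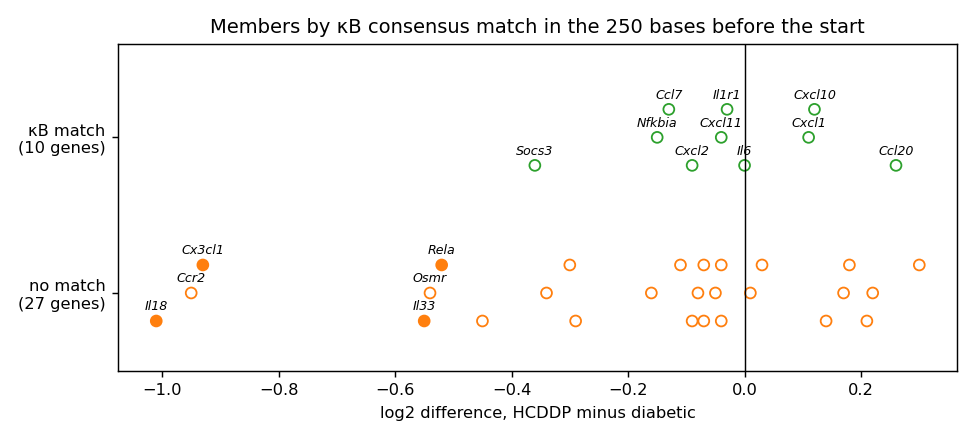
Log2 difference (HCDDP minus diabetic, horizontal axis) of the 37 genes with a promoter window, in rows by whether the 250 bases before the start spell the κB consensus, with filled points for an unadjusted p under 0.05. The 10 genes with a match lie between −0.36 and 0.26, and the 4 filled points, Il18, Cx3cl1, Il33 and Rela, lie in the row of the 27 genes without one.

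The same counts are given apart for genes with a strong and with a weak signal. Of the 47 genes 19 had a mean signal above the median of all genes, with a median difference of −0.29, against −0.05 for all genes above that median. The arrays differed in the width of their signals, whose span between percentiles 10 and 90 was 5.19, 5.16 and 4.45 in diabetic arrays 1, 2 and 3 and 4.92, 4.94 and 4.48 in the HCDDP arrays. The part of this width in the split by signal was not tested. After quantile normalization Il1r1 (0.05), Il6st (0.04), Cxcl12 (0.01) and Stat3 (0.03), which are among the 19, lay above 0. Il18 (−0.95), Cx3cl1 (−0.85), Il33 (−0.45) and Rela (−0.41) stayed lower. In 4 of these 19 (21.1%) the unadjusted p was under 0.05, all lower, against 4.82% of all genes above the median, and 11 of the 19 (57.9%) were lower in all 3 numbered pairs, against 26.8%. The 11 were Il18, Il33, Cx3cl1, Rela, Il6st, Tnfrsf1a, Osmr, Ccl2, Cxcl12, Csf1 and Socs3. The 28 genes at or below the median, among them Il1b, Il6 and Tnf, had a median of −0.04, against 0.04 for all genes at or below it, and 0 of the 28 had such a p, against 2.20% of all genes at or below it. The difference between these sets of genes was not tested. Over all 47 genes, 15 (31.9%) were lower in every pair, against 19.6% of all genes, and 3 (6.38%), Osm, Il16 and Cxcl1, were higher, against 17.6%. Quantile normalization left 14 and median centring 13 that were lower in every pair. The 19.6% of all genes holds for the signals as deposited, so it is no comparison for these counts.

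The number of genes past the threshold depended on single arrays. It was 2 in the whole comparison. It was 6 (12.8%) without HCDDP array 1, where 3.69% of all genes passed. These were Cx3cl1, Il33, Rela, Ccr2 (−1.29), Csf1 and Tnfrsf1a (−0.60). It was 1 (2.13%) without HCDDP array 2, Il18, and without HCDDP array 3, Ccr1 (−0.65), where 3.23% and 1.78% of all genes passed. It was 0 without diabetic array 1 or array 2, where 1.99% and 1.94% of all genes passed, and 10 (21.3%) without diabetic array 3, where 10.9% passed. The 10 were Il18, Il33, Cx3cl1, Rela, Osmr, Ccl2 (−0.66), Ccr2 (−1.37), Cxcl13 (−1.07) and Csf1, which were lower, and Osm (0.69), which was higher. Without both arrays numbered 3 it was 7 (14.9%), Il18, Cx3cl1, Il33, Rela, Osmr, Ccr1 and Ccr2, against 8.16% of all genes. The direction of Il18, Cx3cl1, Il33 and Rela was the same in each of these comparisons.

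**Figure D4:**
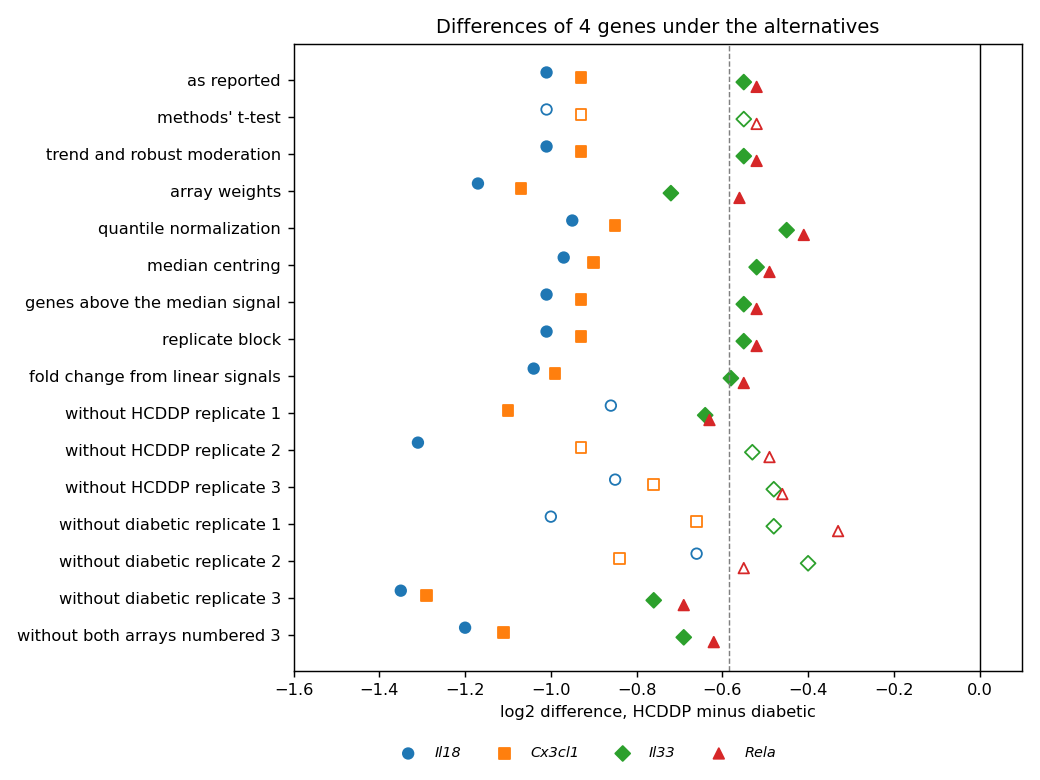
Log2 difference (HCDDP minus diabetic, horizontal axis) of Il18, Cx3cl1, Il33 and Rela in the reported comparison and under the alternatives named on the vertical axis, with filled symbols for an unadjusted p under 0.05 and a dashed line at a fold change of 1.5. Every symbol lies below 0, and Il18 runs from −0.66 without diabetic array 2 to −1.35 without diabetic array 3.

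To set the 47 genes among the rest of their pathways, 241 further genes in 6 lists were counted. Of these, 10 were lower and 5 higher past the threshold (6.22%, against 3.20% of all genes in either direction), and their median difference was −0.02. The lists were drawn up with earlier results of these data known, so a share above that of all genes could follow from the choice alone. Of 71 other interleukins, members of the TNF superfamily and receptors, 2 were lower and 1 was higher. Ngfr, the p75 neurotrophin receptor, had −0.61, Il12rb2, a chain of the interleukin-12 receptor, −0.61, and Il5, which sustains eosinophils, 0.61. The signal of Il5 was weak, at percentiles 9.1 to 16.9 of the signals of an array. Of 44 other chemokines, colony-stimulating factors and receptors, Cx3cr1 was the 1 that passed. Of 59 genes of NF-κB and toll-like receptor signalling, 0 were lower and 2 were higher, Tnip1, which encodes an inhibitor of NF-κB, at 0.63, and Ticam2, an adaptor of TLR4, at 0.61. Of 26 genes of JAK-STAT signalling, 2 were lower, Pias1 at −0.70 and Pias2 at −0.61, whose products inhibit activated STAT proteins. Each of the genes in this paragraph dropped below the threshold without at least 1 array, Il5 without HCDDP array 3 (0.50) or diabetic array 1 (0.48), Cx3cr1 without HCDDP array 2 (0.52), and Tnip1 without HCDDP array 2 (0.46), diabetic array 2 (0.55) or diabetic array 3 (0.58). Ticam2 did so without HCDDP array 3 (0.49), diabetic array 1 (0.51) or diabetic array 2 (0.58), and Ngfr without the same arrays (−0.47, −0.54 and −0.54). Il12rb2 did so without HCDDP array 2 (−0.59) or array 3 (−0.42) and without diabetic array 1 (−0.55) or array 2 (−0.61). Pias2 did so without HCDDP array 1 (−0.62) or array 3 (−0.47) and without diabetic array 1 (−0.53) or array 2 (−0.43). Pias1 passed without diabetic array 3 but not when any HCDDP array was left out (−0.68, −0.80 and −0.61 for arrays 1, 2 and 3), nor without diabetic array 1 (−0.60) or 2 (−0.44). Other processing ended some of these calls as well. Il12rb2, Tnip1, Pias1 and Pias2 did not pass by the methods' t-test. After quantile normalization Il5 (0.57), Ngfr (−0.57), Pias1 (−0.56) and Pias2 (−0.51) did not pass, after median centring Il12rb2 (−0.57), Ngfr (−0.58) and Pias2 (−0.58) did not, and with array weights Ticam2 (0.58) did not. Pias1 and Pias2 did not pass over all probe rows, nor Il12rb2 with a fold from linear signals (−0.57).

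Genes that cytokines are known to induce were counted last. Of 30 adhesion, enzyme and stress genes, 4 were lower and 1 was higher past the threshold. Of 13 genes of Müller glia gliosis, the reaction of these glia to injury, 3 were lower and 0 higher past it. Among all genes 2.28% passed lower and 0.925% higher, but these lists too were drawn up with earlier results of these data known. Both lists were mixed. Whatever their p, 20 of the 30 genes were lower and 10 higher, with a median of −0.08. Of the 13 gliosis genes 8 were lower and 5 higher, with a median of −0.1. Lcn2, an iron-binding protein secreted by reactive glia, stands on both lists. Steap4, a metalloreductase that TNF induces in mouse cells, had −0.91, A2m, a protease inhibitor of the acute phase, −0.84, and Timp1, an inhibitor of metalloproteinases that IL-6 family cytokines induce, 0.80. These 3 passed the threshold whichever array was left out. Edn1, the gene of the vessel-constricting endothelin-1, had −0.80 and −0.58 without HCDDP array 3, where it did not pass. Lcn2 had −0.79 and did not pass without HCDDP array 2 (−0.69) or array 3 (−0.77) or without diabetic array 2 (−0.48). Ptgs2, the inducible cyclooxygenase, had −0.78 and did not pass without HCDDP array 1 (−0.62), HCDDP array 3 (−0.81), diabetic array 1 (−0.71) or diabetic array 2 (−0.56). Serpina3n, a protease inhibitor of reactive astroglia, had −0.71 and did not pass without HCDDP array 1 (−0.81), 2 (−0.69) or 3 (−0.62) or without diabetic array 2 (−0.33). By the methods' t-test Edn1, Lcn2, Ptgs2 and Serpina3n did not pass, and Serpina3n did not pass after quantile normalization (−0.65), after median centring (−0.68) or over all probe rows either.

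Markers of several cell types moved between the groups beside these genes, and their part in the differences was not tested. Of 20 measured markers of microglia and macrophages 17 were lower, with a median of −0.17, and their summed linear signal was 1678 to 2625 in the HCDDP arrays and 2114 to 3052 in the diabetic arrays. Past the threshold were Fcer1g, lower at −0.90, and Cx3cr1, higher at 0.65. The defining microglial genes Tmem119, P2ry12 and Aif1 had 0.00, −0.08 and −0.12. Of 9 measured Müller glia markers 6 were lower, with a median of −0.33 and a summed signal of 5695 to 7060 against 6972 to 11040, and Clu passed at −0.96. All 15 measured markers of bipolar, amacrine and ganglion cells were lower, with a median of −0.33, and their summed signal was 4783 to 5591 against 5376 to 7306. Of 9 rod photoreceptor markers 7 were lower, with a median of −0.26, and of 10 markers of the retinal pigment epithelium 9, with a median of −0.23. Of 12 markers of endothelium and pericytes 5 were lower and 7 higher, with a median of 0.03. Of 11 lymphocyte markers 6 were lower, with a median of −0.01 and a summed signal of 389.5 to 429.5 against 447.4 to 534.9, where Cd4, which macrophages of the rat carry too, had −0.79. Of 8 neutrophil markers 6 were higher, with a median of 0.20 and a summed signal of 175.7 to 501.9 against 163.0 to 181.8. The value of 501.9 was that of HCDDP array 1, where S100a8 was at 7.79 and S100a9 at 7.32, and the other HCDDP arrays reached 175.7 and 213.7. All 4 measured markers of red blood cells were higher, with a median of 0.39, and their summed signal of 475.7 to 782.5 against 200.8 to 808.3 overlapped. Marker genes of tissues outside the retina were counted too. Of 6 measured lens markers 5 were lower, with a median of −0.24. Of 16 markers of corneal and scleral stroma 14 were lower, with a median of −0.55 and a summed signal of 13440 to 16690 against 19820 to 21570. Of 15 enterocyte markers 13 were lower, with a median of −0.75 and a summed signal of 497.5 to 631.5 against 821 to 1672. Past the threshold were 8 of the 16 stroma and 9 of the 15 enterocyte markers, all lower, against 2.28% of all genes. These lists too were drawn up with earlier results of these data known. The enterocyte marker Fabp2, at −2.75, was the 1 gene of all with an adjusted p under 0.05 (0.0365 from limma). The summed signals of the lymphocyte, stroma and enterocyte lists did not overlap between the groups. In the lymphocyte list Cd4 had the highest signal, at 7.09, 7.56 and 6.93 against 8.27, 8.18 and 7.52, and so weighed most in that sum. Of the 11 lymphocyte markers 6 were lower and 5 higher, among the latter Cd79a (0.45) and Cd2 (0.35). The gap in that sum therefore does not stand for the list, and a sum without Cd4 is not given.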

How the data were processed

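Per the paper's methods the authors ran Expression Console Software 1.41 on the scans, and they deposited a table of 36685 probe rows with a log2 signal for each array. How background, normalization and summarisation were handled is not stated in those sources. Groups and array numbers were taken from the labels, and doses and durations from the paper. Rows naming a single gene were used, with symbols updated by RefSeq gene identifier (18394 rows matched) and the row of highest mean signal where a gene had several, which gave 18166 genes. No filter or further normalization was applied. The groups were compared with limma 3.58.1 (lmFit and eBayes, R 4.3.3), with Benjamini-Hochberg adjustment over all genes. Named genes were also tested by exact permutation (two-sided, 20 assignments), whose smallest p is 0.10. The p from this permutation was 0.2 for each of Il18, Cx3cl1, Il33 and Rela and 0.3 for Ccr2. Arrays give no counts, so their number, 3 in each group, limits the precision. The 47 genes and all lists were chosen with earlier results of these data known.

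Values in every array were given for genes with an unadjusted p under 0.05 or no overlap and for a set list of central genes, and up to 4 genes per pathway list by smallest p. No source pairs the arrays, but their deviations from the group means correlated at 0.274, 0.292 and 0.445 between arrays of equal number, so the replicate block was treated as a pairing. Alternatives were array weights (statmod 1.5.0), the replicate block, quantile normalization, median centring, the methods' t-test, trend and robust moderation, genes above the median signal, all probe rows, the mean of a gene's rows, folds from linear signals, a fold over 2, and leaving out each array or both arrays numbered 3. The test was first tried on simulated data. Motifs were searched in RefSeq promoter windows with Python 3.11.15 and pandas 2.3.3, and figures were drawn with matplotlib 3.10.9.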

Additional observations from a re-analysis of the deposited data

How the results depend on the processing

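Il18, Cx3cl1, Il33 and Rela stayed lower in the HCDDP group under every alternative run. The 2 genes of the list past the threshold became 0 by the methods' t-test, 6 with array weights, 1 at a fold change over 2, 7 without both arrays numbered 3, and 0 to 10 with single arrays left out. With the replicate block they were 3, and the block changed no other call among the 47 genes. The median of −0.07 became −0.29 over genes above the median signal. Over all genes the 582 past the threshold became 196 by the t-test, 1362 with array weights, 381 above the median signal, 1898 over all probe rows, 90 at a fold over 2, 1482 without both arrays numbered 3, and 323 to 1984 with single arrays left out. The 1 gene past an adjusted p became 0 by the t-test, above the median signal and over all probe rows, 3 with array weights, 7 without both arrays numbered 3, and 0 to 311 with single arrays left out. The 15 genes of the pathway lists became 7 by the t-test, 25 with array weights, 0 at a fold over 2, and 6 to 30 with single arrays left out. The causes were not tested. Signs turned in 24 of the 47 genes, whose difference was at most 0.30 in size. With array weights Il1b became 0.04, Il10 0.02, Il15 0.18, Tnfrsf1b 0.05, Cntf 0.01 and Cxcl2 0.09. With quantile normalization Il1r1 became 0.05, Il6st 0.04, Il12a −0.04, Cxcl12 0.01 and Stat3 0.03, and with median centring Il1r1 0.01 and Il6 0.03. Without both arrays numbered 3, Il1b became 0.06, Il1r1 0.06, Il10 0.07, Il12a −0.03, Il15 0.25, Cxcl2 0.12 and Nfkb1 −0.04. With single arrays left out, the ranges that crossed 0 were Ccl4 from −0.03 to 0.30, Ccl7 from −0.24 to 0.02, Cntf from −0.20 to 0.03, Csf2 from 0.00 to 0.36, Csf3 from −0.09 to 0.02, Cxcl10 from −0.06 to 0.25, Cxcl11 from −0.11 to 0.06, Cxcl12 from −0.19 to 0.01, Cxcl13 from −1.07 to 0.28, Cxcl16 from −0.52 to 0.00, Cxcl2 from −0.28 to 0.13, Cxcl9 from −0.36 to 0.11, Il10 from −0.14 to 0.07, Il12a from −0.16 to 0.22, Il15 from −0.23 to 0.17, Il1b from −0.09 to 0.02, Il1r1 from −0.09 to 0.03, Il34 from −0.02 to 0.36, Il6 from −0.09 to 0.11, Lif from −0.11 to 0.24, Nfkb1 from −0.03 to 0.12, Stat3 from −0.25 to 0.10 and Tnfrsf1b from −0.16 to 0.12. The number of arrays, the unknown summarisation and the arrays numbered 3 limit every value here.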
